A study of Sus scrofa with 30 samples.

Results

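ssc-miRNAs of the miR-10, miR-99, miR-100 and miR-125 families were followed in plasma of Göttingen minipigs (GMPs) before and after total body irradiation (TBI). A member was any ssc-miRNA that carries exactly the number of one of these families, and 8 of the 411 ssc-miRNAs in the count table met this rule. They were ssc-miR-10b, ssc-miR-10a-5p and ssc-miR-10a-3p of the miR-10 family, ssc-miR-99b, ssc-miR-99a and ssc-miR-100 of the miR-99 and miR-100 family, and ssc-miR-125a and ssc-miR-125b of the miR-125 family. Apart from the ssc-miR-10a rows, the names carry no arm.

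The animals were 3 male GMPs of about 4 months of age, each bled at 10 time points. Plasma was drawn 7 days (C7) and 1 day (C1) before a single 2.2 Gy TBI from a 60Co source, 6 hours after it (0d), and then at 7 later times (1d, 3d, 7d and 10d, followed by 14d, 17d and 20d). All animals also received 5% dextrose after TBI as controls of a countermeasure study, with antibiotics when neutrophils were low, and all were sampled under anesthesia. There was no unirradiated group, so irradiation, time since the first bleed, care and repeated sampling cannot be told apart. The study states that these animals did not survive the TBI, and decline before death cannot be told apart from these either. C7 and C1, both drawn before TBI per the labels, were pooled here as the pre-TBI baseline. The study grouped the later time points by its own miRNA profiles into an Early phase that ends with 7d, a Mid phase of 10d plus 14d, a Late phase of 17d alone and an LR phase of 20d alone. The phases were thus set from these same libraries, so tests of a phase against pre-TBI are not independent of the grouping.

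Libraries under 1000 counts were left out, which removed 6 of the 30 libraries, all from minipig 3 from 3d on. The 24 libraries used were 6 pre-TBI, 10 Early, 4 Mid, 2 Late and 2 LR, with 24341 to 550316 counts each (median 240612). The Late libraries held 29159 and 63441 counts, and 1 of the pre-TBI libraries, minipig 1 at C7, was the smallest of all. Every Mid, Late and LR value therefore rests on minipigs 1 and 2, while the pre-TBI baseline also holds minipig 3. In fits that ignore the animal, changes from pre-TBI thus mix time with differences between animals. The most abundant ssc-miRNA, ssc-miR-4332, took 0.830% to 20.2% of a library (median 13.7%). The tissue label is plasma, which has no cells of its own. Red cell miRNAs (miR-451, miR-486, miR-144 and miR-363, all 4 listed) summed to 1.08% to 9.07% of the counts pre-TBI, 0.859% to 7.11% at Early, 0.943% to 3.08% at Mid, 0.669% to 1.05% at Late and 1.35% to 1.71% at LR.

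The miR-10 and miR-99/100 families are evolutionary relatives. A mature miRNA finds its target mRNAs mainly through its seed, a short stretch near the 5′ end, and lowers their translation and stability. The miR-10 genes lie inside the HOX clusters, the gene arrays that lay out the body axis, and in the pig annotation (RefSeq, Sscrofa11.1) the nearest HOX gene was HOXB3 for MIR10A on chromosome 12 and HOXD8 for MIR10B on chromosome 15. Members of the other families sit together with let-7 genes. RefSeq placed MIR99B, MIRLET7E and MIR125A on chromosome 6, MIR100, MIRLET7A-1 and MIR125B-1 on chromosome 9, and MIR99A with MIRLET7C on chromosome 13. The miR-125 family is known for its high level in hematopoietic stem cells, the cells that TBI depletes, and miR-99 and miR-100 are known to act on mTOR signaling. The mature sequences of ssc-miR-10a-5p and ssc-miR-10b, of ssc-miR-99a and ssc-miR-100, and of ssc-miR-125a and ssc-miR-125b are near-identical. Reads could therefore be divided between the members of each pair, or counted for both, in part by how they were aligned.

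Before TBI, ssc-miR-10b stood above all other members. Its mean level was 13.96 on the log2 CPM scale (counts scaled to one common library total, with TMM factors) with an SD of 0.50 (n = 6), against 12.37 for ssc-miR-10a-5p, 10.82 for ssc-miR-99b, 10.72 for ssc-miR-125a, 10.54 for ssc-miR-125b, 9.64 for ssc-miR-10a-3p, 9.19 for ssc-miR-99a and 8.89 for ssc-miR-100. ssc-miR-10b exceeded ssc-miR-10a-5p by 1.59 ± 0.35 (SD) and ssc-miR-10a-5p exceeded ssc-miR-99b by 1.55 ± 0.22, each in 6 of 6 libraries. Further down, neighbours in this order did not differ beyond their spread. The difference was 0.10 ± 0.71 between ssc-miR-99b and ssc-miR-125a, 0.17 ± 0.31 between ssc-miR-125a and ssc-miR-125b, 0.91 ± 2.67 between ssc-miR-125b and ssc-miR-10a-3p, 0.44 ± 2.51 between ssc-miR-10a-3p and ssc-miR-99a, and 0.30 ± 0.32 between ssc-miR-99a and ssc-miR-100. Mature miRNAs have about the same length, so these levels are not scaled by it, although ligation efficiency differs between sequences.

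ssc-miR-10b ranked between 3 and 23 among the 411 ssc-miRNAs over the 24 libraries (median rank 8). By itself it gave 40.4% to 66.5% of all member counts in the pre-TBI libraries. The miR-10 family took 1.74% to 3.21% of a pre-TBI library (median 2.46%), the miR-99 and miR-100 family 0.242% to 0.376% (median 0.306%), and the miR-125 family 0.123% to 0.646% (median 0.364%). The miR-10 family's share was 1.21% to 6.31% at Early and 1.34% to 4.66% at Mid. It was 0.597% and 1.16% in the Late libraries and 2.63% and 2.96% in the LR libraries. Both Late shares were below every pre-TBI share. The miR-125 share at Late was 0.0514% in minipig 1 and 0.244% in minipig 2, of which the higher overlapped the pre-TBI range. These are shares of a library's counts and do not measure amounts in plasma. Fewer cells that release a miRNA, less released per cell and a change in the other miRNAs of a library cannot be told apart.

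**Figure D1:**
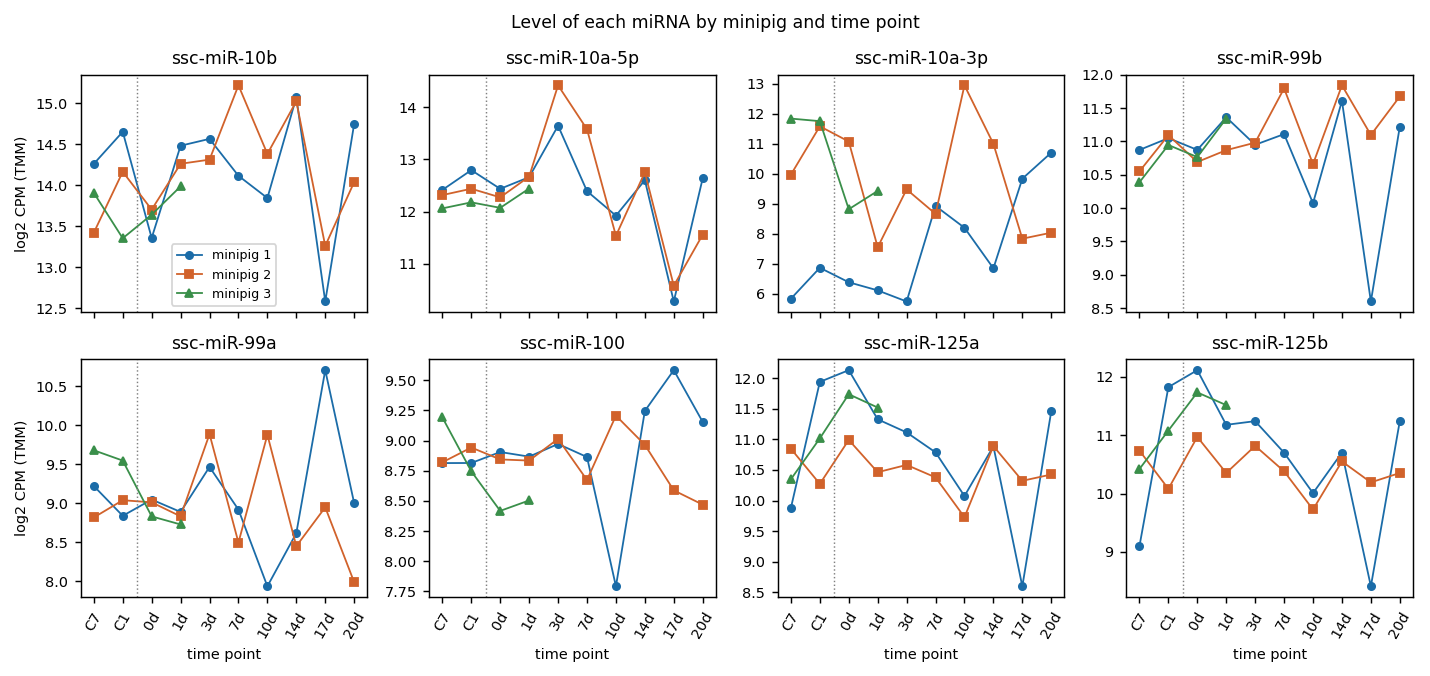
Level of each of the 8 members (vertical axis, log2 CPM with TMM scaling) at each time point (horizontal axis), with 1 line per minipig and a dotted line between the pre-TBI and post-TBI time points. ssc-miR-10b and ssc-miR-10a-5p were lowest at 17d in minipigs 1 and 2, and the line of ssc-miR-10a-3p in minipig 1 started far below those of the other animals.

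Between C7 and C1, with no irradiation in between, 0 of 8 members were called at an unadjusted p under 0.05, the threshold the study used, against 0.73% of all 411 ssc-miRNAs (3, edgeR's quasi-likelihood test, none after adjustment). The largest member values were 0.89 ± 0.51 (log2 fold change ± SE, C1 over C7) for ssc-miR-125b and 0.81 ± 0.48 for ssc-miR-125a. In minipig 1 ssc-miR-125b stood at 540 CPM at C7 and 3623 at C1. Minipig 2 had 1699 and then 1076 CPM, and minipig 3 had 1363 and then 2160. The pre-TBI baseline of the miR-125 family thus spanned a wide range, and its low end was the library with 11 ssc-miR-125b counts.

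Few members passed the test in any phase. At Early, 1 of 8 members was called at an unadjusted p under 0.05, against 18.7% of all ssc-miRNAs, and it was lower, as were 13.6% of all ssc-miRNAs. At Mid it was 0 of 8 against 5.35% (22 ssc-miRNAs), at Late 2 of 8 against 22.6%, and at LR 0 of 8 against 5.6% (23 ssc-miRNAs). Both Late calls were lower, and 7.06% of all ssc-miRNAs were called lower there. After Benjamini-Hochberg adjustment over the 411 ssc-miRNAs no member was called in any phase (edgeR's quasi-likelihood test), against 4.38% of all ssc-miRNAs at Late and 0% in the other phases. The median log2 fold change of the members was 0.25 at Early, beside 0.018 over all ssc-miRNAs. It was -0.040 beside 0.052 at Mid, -1.11 beside 0.076 at Late and 0.013 beside -0.0078 at LR. The members' Late median was -0.45 without minipig 1 and -2.11 without minipig 2. At Late 2 of the 8 members had a positive value, beside 220 of the 411 ssc-miRNAs.

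**Figure D2:**
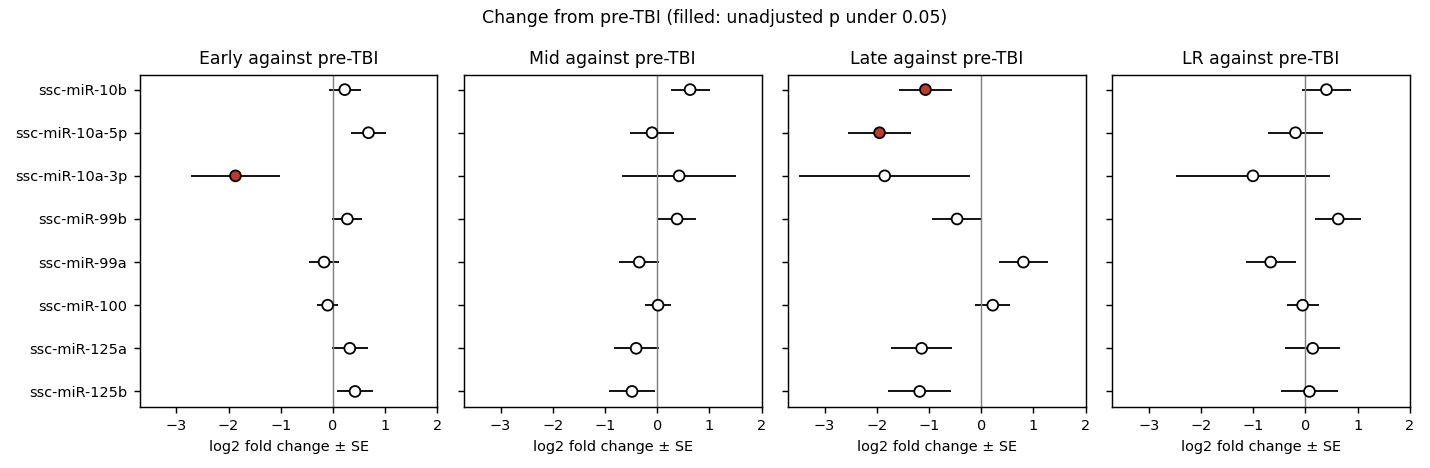
Log2 fold change of each member from the pre-TBI libraries in each phase (points, with bars of 1 SE, edgeR's quasi-likelihood fit), filled where the unadjusted p was under 0.05. The filled points are ssc-miR-10a-3p at Early and ssc-miR-10b and ssc-miR-10a-5p at Late.

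ssc-miR-10a-5p, the mature strand of the HOXB-linked gene, lay above its pre-TBI range in both animals at 3d and below it in both at 10d and 17d. Its pre-TBI libraries held 4268 to 7096 CPM (median 5274). At 3d it reached 12800 CPM in minipig 1 and 21882 in minipig 2, both above every pre-TBI library. At 17d it stood at 1235 CPM in minipig 1 and 1523 in minipig 2, both below every pre-TBI library. The 17d values came from 26 and 97 counts. At 10d it held 3873 and 2963 CPM, and the fit by single time points did not call it there (-0.64 ± 0.37, adjusted p = 0.633, edgeR's quasi-likelihood test). Between these dates both 14d libraries lay within the pre-TBI range, at 6209 and 6896 CPM. In minipig 2 alone it was above the range at 7d (12216 CPM) and below it at 20d (3010 CPM).

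In the fit by single time points, ssc-miR-10a-5p was higher at 3d by 1.70 ± 0.33 on the log2 scale (adjusted p = 0.0108, edgeR's quasi-likelihood test). It was the only one of 8 members called there, unadjusted (8.52% of all ssc-miRNAs, 3.89% called higher) or adjusted (1.22%, all higher). At 17d it was lower by 1.95 ± 0.41 (log2 fold change -1.95, adjusted p = 0.00476), and it was the only member called after adjustment, against 4.87% of all ssc-miRNAs and 0.973% called lower. Both values kept their direction in every alternative run. The 3d call lost its adjusted significance when only the pre-TBI and 3d libraries were fitted (adjusted p = 0.0862) and without minipig 1 (0.0505), 2 (0.509) or 3 (0.0931). The 17d call lost it with only the libraries compared (adjusted p = 0.115) and without minipig 1 (0.0774) or 3 (0.0550), and without minipig 2 it stood at 0.0246.

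Over whole phases ssc-miR-10a-5p was at 0.68 ± 0.34 at Early and not called (adjusted p = 0.267, edgeR's quasi-likelihood test), where the 3d libraries gave the 2 highest of the 10 values. At Mid it was at -0.10 ± 0.42 and at LR at -0.19 ± 0.53. At Late, the same 2 libraries as 17d gave -1.95 ± 0.60 in this fit, called unadjusted, with an adjusted p of 0.0738. With the minipig as a block the adjusted p at Late was 0.0416 for a log2 fold change of -2.18. Against its own animal's pre-TBI mean, ssc-miR-10a-5p fell by 2.33 in minipig 1 and by 1.80 in minipig 2 on the log2 scale at 17d. At 20d it stood 0.034 above that mean in minipig 1 and 0.82 below it in minipig 2 (difference -0.82).

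ssc-miR-10b, the HOXD-linked member and one of the abundant miRNAs of these plasma libraries, held 10455 to 25712 CPM before TBI (median 16842). At Early the range was 10479 to 38054 CPM (median 18671), which overlapped it. The 4 Mid libraries held 14686 CPM (minipig 1, 10d), 21327 (minipig 2, 10d), 34388 (minipig 1, 14d) and 33250 (minipig 2, 14d). Both 14d libraries lay above every pre-TBI library and both 10d libraries lay within the pre-TBI range.

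The Late libraries of ssc-miR-10b held 6126 CPM in minipig 1 and 9800 in minipig 2, both below every pre-TBI library. At LR it was at 27483 and 16805 CPM, of which the first was above the pre-TBI range. The phase values were 0.22 ± 0.30 for Early, 0.63 ± 0.37 for Mid, -1.07 ± 0.51 for Late and 0.40 ± 0.47 for LR. The Late value alone was called unadjusted (adjusted p = 0.209, edgeR's quasi-likelihood test). The Late value was -0.55 without minipig 1 and no longer called (adjusted p = 0.741), and -1.82 without minipig 2. Among single time points ssc-miR-10b was called unadjusted at 14d, where it was higher by 1.02 ± 0.40 (adjusted p = 0.516), and at 17d, where it was lower (-1.07 ± 0.45, adjusted p = 0.174). At 14d 2 of 8 members were called, both higher, against 9% of all ssc-miRNAs called and 4.14% called higher. At 17d it was 2 of 8, both lower, against 23.8% called and 8.52% called lower.

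At Late, 2 of 8 members, ssc-miR-10b and ssc-miR-10a-5p, lay below every pre-TBI library in both animals, against 4.14% of all ssc-miRNAs that did. The sum of the platelet and myeloid miRNAs listed (miR-126, miR-142 and miR-191; miR-223 is not in the table) was lower at Late too, at 0.206% and 0.619% of the counts against 0.933% to 2.26% before TBI. Liver miRNAs (miR-122 and miR-192, with miR-194 not in the table) summed to 0.218% and 0.247% at Late against 0.357% to 0.583%. None of these rows was at 0 in any library used. Striated muscle miRNAs stayed within the pre-TBI range of 0.130% to 0.559%, at 0.259% and 0.305%. Mesenchymal and smooth muscle miRNAs did so too, at 0.326% and 0.504% against 0.325% to 0.592%. The 1 epithelial miRNA found of 5, miR-429, was below its pre-TBI range, at 0.0236% and 0.0446% against 0.0452% to 0.0851%. Red cell miRNAs were also below theirs, at 0.669% and 1.05% against 1.08% to 9.07%. The part of these cell sources and of depth in the Late values was not tested.

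The ratio of ssc-miR-10b to ssc-miR-10a-5p within a library does not depend on how libraries are scaled. Before TBI it was 1.59 ± 0.35 on the log2 scale (SD, n = 6), between 1.11 and 1.86. At Early it was 1.31 ± 0.58 (n = 10), and at 3d it was 0.92 in minipig 1 and -0.11 in minipig 2. The 0d library of minipig 1 also stood at 0.92, so 3 Early libraries lay below the pre-TBI range. In that minipig 2 library ssc-miR-10a-5p, with 5756 counts, outnumbered ssc-miR-10b, with 5344.

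From 10d on the ratio was higher than in every pre-TBI library in all 8 libraries, a feature singled out after its values were seen. The 4 Mid libraries gave 1.92, 2.47, 2.84 and 2.27, with a mean of 2.37 ± 0.39. The difference from pre-TBI at Mid was 0.78 (two-sided exact permutation test within minipigs, p = 0.0278, the smallest that its 36 arrangements allow, adjusted p = 0.427 over 20 ratio tests). Late gave 2.29 and 2.68, and LR 2.11 and 2.48, both with p = 0.111 in the exact permutation test, which is the smallest that 9 arrangements allow. Leaving out minipig 1, 2 or 3 left Mid differences of 1.09, 0.51 and 0.74. Their p in the exact permutation test was 0.167, 0.167 and 0.0556, and 0.167 is the smallest that the designs without minipig 1 or 2 allow. At 17d both miRNAs were lower, ssc-miR-10a-5p by more.

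**Figure D3:**
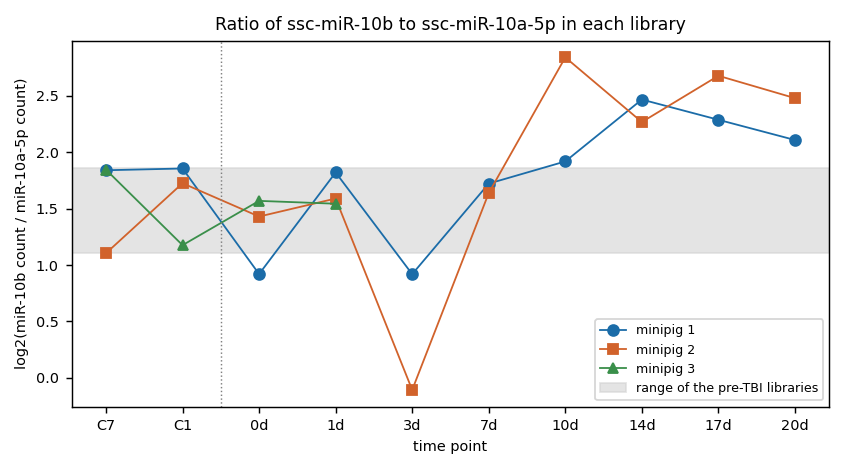
Log2 ratio of the ssc-miR-10b count to the ssc-miR-10a-5p count in each library (vertical axis) by time point (horizontal axis), with 1 line per minipig and the pre-TBI range shaded. All libraries from 10d on lie above the shaded range of 1.11 to 1.86, and both 3d libraries and the 0d library of minipig 1 lie below it.

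ssc-miR-10a-3p, the opposite arm of the same precursor, did not follow ssc-miR-10a-5p. Its counts ran from 1 to 2076. Before TBI it held 49 and 109 CPM in minipig 1, 992 and 3048 in minipig 2, and 3643 and 3433 in minipig 3, so the animals were further apart than most phases. The first of these is 1 count. In minipig 2 at 10d it reached 7863 CPM (337 counts) and exceeded ssc-miR-10a-5p (127 counts). Pearson's r between the 2 arms was -0.20 over the 24 libraries, which share animals and depth.

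At Early ssc-miR-10a-3p was lower by 1.87 ± 0.86 and called unadjusted (log2 fold change -1.87, adjusted p = 0.236, edgeR's quasi-likelihood test). The call was lost with the minipig as a block (-1.24, adjusted p = 0.338) and without minipig 3 (-1.14, adjusted p = 0.704). Against its own pre-TBI mean it was at 0.44 in minipig 1, -1.59 in minipig 2 and -2.67 in minipig 3. Values at Late and LR were -1.85 ± 1.64 and -1.00 ± 1.47, and with the minipig as a block they were 0.13 and 1.30. In minipig 1 it stood 3.49 above its pre-TBI mean at 17d and 4.35 above it at 20d, while in minipig 2 it was at -2.94 and -2.74. No common course was seen across animals.

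ssc-miR-99b was the most abundant of the miR-99 and miR-100 family, with 1332 to 2179 CPM before TBI (median 1916). At 14d it stood at 3115 CPM in minipig 1 and 3663 in minipig 2, both above that range, and was called unadjusted as higher by 0.89 ± 0.38 (adjusted p = 0.534, edgeR's quasi-likelihood test). At LR both libraries, at 2381 and 3262 CPM, lay above every pre-TBI library, for 1 of 8 members against 6.57% of all ssc-miRNAs. The LR value was 0.63 ± 0.44 and did not pass the test (adjusted p = 0.593). At 17d the animals parted, with 380 CPM in minipig 1 (8 counts) and 2183 in minipig 2 (139 counts), and the Late value was -0.46 ± 0.47.

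ssc-miR-99a and ssc-miR-100 had lower levels and were not called in any phase. ssc-miR-100 had the narrowest pre-TBI range of the members, 422 to 577 CPM (median 443), and its phase values were -0.10 ± 0.20, 0.018 ± 0.25, 0.22 ± 0.33 and -0.053 ± 0.31 from Early to LR. With these errors a change of the size of 1 SE would not have been detectable. ssc-miR-99a held 444 to 812 CPM before TBI. At 17d it was at 1662 CPM in minipig 1 (35 counts) and 487 in minipig 2 (31 counts), and its Late value was 0.81 ± 0.47 (not called, adjusted p = 0.298, edgeR's quasi-likelihood test), with -0.43 without minipig 1. In the 17d library of minipig 1, ssc-miR-99a therefore outnumbered ssc-miR-99b, which did not occur in any pre-TBI library. At LR ssc-miR-99a was at 505 and 247 CPM with a value of -0.66 ± 0.48 (adjusted p = 0.593).

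ssc-miR-125a and ssc-miR-125b, the homologues of the worm timing miRNA lin-4, had parallel levels in these libraries. ssc-miR-125a held 934 to 3915 CPM before TBI (median 1564), 1323 to 4472 at Early (median 2116), and 1069, 840, 1884 and 1889 at Mid. At 17d it was at 380 CPM in minipig 1 (8 counts) and 1272 in minipig 2 (81 counts), and at 20d at 2802 and 1367. ssc-miR-125b held 332 CPM (7 counts) and 1162 CPM (74 counts) at 17d against 540 to 3623 before TBI. At 17d the library of minipig 1 lay below the pre-TBI range of both miRNAs, and for ssc-miR-125a so did that of minipig 2 at 10d (840 CPM from 36 counts).

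The Late values were -1.14 ± 0.59 for ssc-miR-125a and -1.18 ± 0.60 for ssc-miR-125b, just outside the unadjusted threshold (adjusted p = 0.234 for both, edgeR's quasi-likelihood test). Against the animals' own pre-TBI means, ssc-miR-125a was at -2.31 in minipig 1 and -0.24 in minipig 2 at 17d. ssc-miR-125b was at -2.05 and -0.22. Without minipig 2 the Late values were -2.73 and -2.83, both called, and without minipig 1 they were -0.36 and -0.47, neither called. At Early the values were 0.32 ± 0.34 and 0.42 ± 0.35, and the highest libraries were those at 0d in minipig 1, with 4472 and 4434 CPM.

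The members of the miR-125 pair had almost the same counts, such as 1518 and 1517 in minipig 3 at 0d. Their log2 ratio, ssc-miR-125a over ssc-miR-125b, ran from -0.24 to 0.76. Whether the same reads were counted for both was not tested, so these rows may not be separate measures. Over the 24 libraries they totalled 12745 for ssc-miR-125a and 12437 for ssc-miR-125b, Pearson's r of their log2 CPM was 0.975, and the chi-square of the pair was 1.65 per degree of freedom. For ssc-miR-99a and ssc-miR-100 the totals were 3288 and 2800, r was 0.72 and the chi-square 4.96 per degree of freedom. For all other pairs of members the values were higher, from 15.4 for ssc-miR-10b and ssc-miR-100 to 497 for ssc-miR-10b and ssc-miR-10a-3p. The other near-identical pair, ssc-miR-10b and ssc-miR-10a-5p, stood at 286. The value was 66.5 for ssc-miR-99b and ssc-miR-125a. The genes of these are in the same cluster, and their r was 0.53. Chi-square grows with the counts, so it does not rank pairs of unlike totals. The log2 ratio of ssc-miR-99a over ssc-miR-100 ran from -0.63 to 1.11. ssc-miR-99b and ssc-miR-99a, which bear the same number, had an r of -0.62. All these correlations are over libraries of 3 animals and are given as a description.

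**Figure D4:**
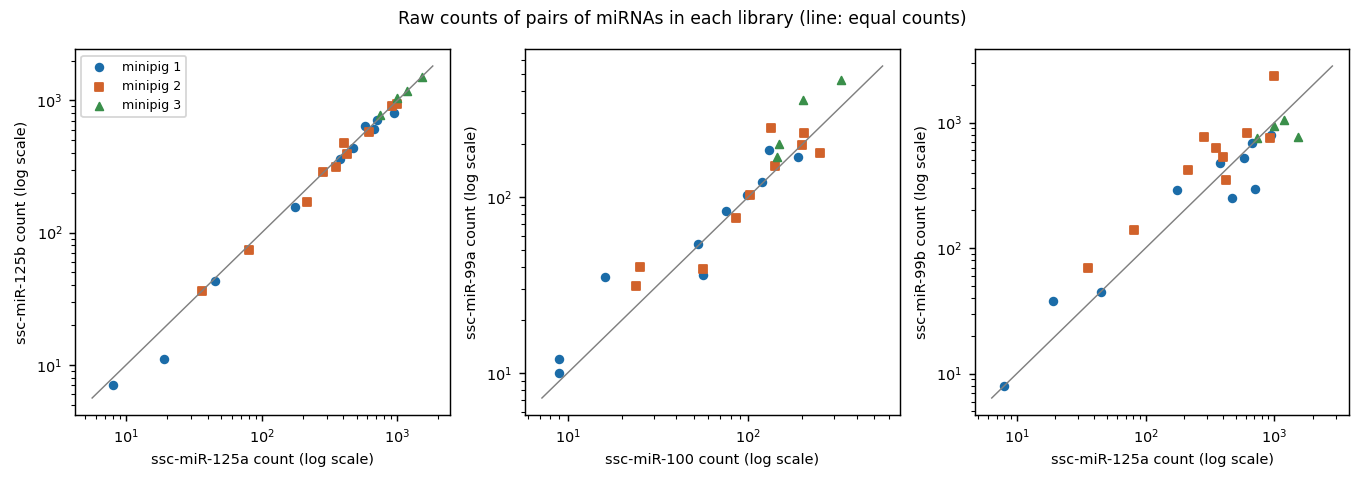
Raw counts of 3 pairs of members in each library, on log scales, with 1 symbol per minipig and a line of equal counts. ssc-miR-125b lies close to the line against ssc-miR-125a (totals 12437 and 12745), while ssc-miR-99b scatters widely around it against ssc-miR-125a.

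No change passed the test for the ratios of the other pairs. None of the 16 tests of ssc-miR-99a over ssc-miR-100, ssc-miR-99b over ssc-miR-125a, ssc-miR-125b over ssc-miR-100 and ssc-miR-125b over ssc-miR-125a passed an unadjusted p of 0.05 in the exact permutation tests, although at Late and LR no p under 0.111 was possible. The lowest p among them was 0.0867 for ssc-miR-125b over ssc-miR-125a at Early, where the ratio lay between -0.15 and 0.24, against a mean of -0.17 ± 0.31 before TBI (exact permutation test within minipigs). Without minipig 3 that difference was 0.29 (p = 0.0133, exact permutation test). Both differences include the pre-TBI library of minipig 1 at C7, which stood apart at -0.76, from 11 and 19 counts. The next lowest pre-TBI ratio was -0.19. ssc-miR-99b over ssc-miR-125a was 0.10 ± 0.70 before TBI and 0.65 ± 0.45 at Mid, a difference of 0.55 (p = 0.278, exact permutation test).

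Of the 64 pairs of a member and a post-TBI time point, 6 were called at an unadjusted p under 0.05 and 2 after adjustment, all named above except ssc-miR-10a-5p at 7d (0.72 ± 0.34, adjusted p = 0.546, edgeR's quasi-likelihood test). That 7d value rested on minipig 2, with 12216 CPM against 5368 in minipig 1, and without minipig 2 it was 0.016. At 7d 1 of 8 members was called, and it was higher, against 8.27% of all ssc-miRNAs called and 3.89% called higher. No member was called at 0d (8.52% of all, 35 ssc-miRNAs), 1d (12.2%, 50), 10d (7.3%, 30) or 20d (7.06%, 29) in edgeR's quasi-likelihood test.

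The rows that share a genomic cluster or are linked to HOX genes like the miR-10 genes were followed beside the members. These 7 partners were ssc-let-7a, ssc-let-7c, ssc-let-7e, ssc-miR-196a, ssc-miR-196b-3p, ssc-miR-196b-5p and ssc-miR-615. let-7 genes are known as brakes on growth and stem cell programs, and miR-196 and miR-615 lie in HOX clusters. 1 of 7 was called at Early, Mid and LR each, and 4 of 7 at Late at an unadjusted p under 0.05, against the same 18.7%, 5.35%, 5.6% and 22.6% of all ssc-miRNAs.

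Among the HOX-linked partners, ssc-miR-615 was called in 3 of the 4 phases. It was higher at Early (0.52 ± 0.25), lower at Late (-0.98 ± 0.42) and higher at LR (0.84 ± 0.37), with adjusted p of 0.261, 0.176 and 0.593 (edgeR's quasi-likelihood test). Its pre-TBI libraries held 2653 to 5076 CPM, the Late ones 950 and 3110 and the LR ones 8168 and 6304. Only the Late library of minipig 1 was below the pre-TBI range, and both LR libraries were above it. None of these calls held in every alternative. The Early one was lost with library size only, with RLE scaling and without any 1 of the minipigs, and the LR one with library size only and without minipig 1 or 2. Both were also lost without the C7 library of minipig 1. The Late one was lost with the minipig as a block (-0.85, adjusted p = 0.279), with only the libraries compared and without minipig 1 or 3. ssc-miR-196b-3p was lower at Late (-0.94 ± 0.42, adjusted p = 0.192), at 1235 and 864 CPM, both below its pre-TBI range of 1278 to 2938, a call lost with only the libraries compared and without minipig 1. ssc-miR-196a and ssc-miR-196b-5p were not called in any phase.

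The let-7 partners parted between the animals at 17d. ssc-let-7e stood at 1005 CPM in minipig 2 (64 counts) and 95 CPM in minipig 1 (2 counts), against 107 to 246 CPM before TBI. Its Late value was 2.29 ± 0.41 (adjusted p = 0.00102, edgeR's quasi-likelihood test), with 3.13 without minipig 1 and -0.75 without minipig 2. ssc-let-7a had 225 counts in minipig 2 and 2 in minipig 1, and its Late value of 1.83 ± 0.70 (adjusted p = 0.134) was -2.92 without minipig 2, and its call was lost with only the libraries compared. At Mid ssc-let-7a was lower (-1.42 ± 0.67, adjusted p = 0.808), a call lost with the minipig as a block (-1.32, adjusted p = 0.679), with library size only or RLE scaling, without minipig 2 or 3 and without the C7 library of minipig 1. ssc-let-7c had 234 and 2 counts in the same 17d libraries and was not called (adjusted p = 0.298, edgeR's quasi-likelihood test). These let-7 rows rose and fell together at 17d. Whether reads were shared among them was not tested, so they may not be separate measures. In the 17d library of minipig 2 the members beside these let-7 genes stood between -0.29 and 0.27 of their own pre-TBI mean (log2 scale). MIRLET7A-1 and MIR125B-1 are numbered gene copies, so the ssc-let-7a and ssc-miR-125b rows cannot be assigned to that cluster alone.

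**Figure D5:**
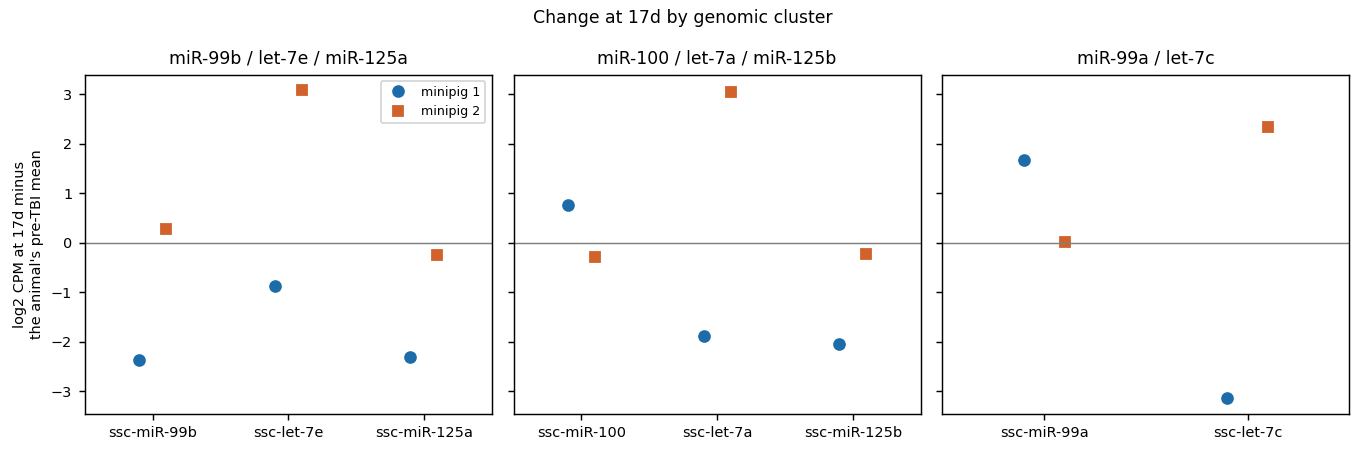
Log2 CPM at 17d minus the animal's own pre-TBI mean (vertical axis) for the members and the let-7 row of each genomic cluster, for minipigs 1 and 2. In minipig 2 the let-7 rows stand 2.33 to 3.09 above the line while the members stay near it. In minipig 1 the let-7 rows are below it. The ssc-let-7a and ssc-miR-125b rows may also hold reads from other gene copies.

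The ssc-miRNAs outside the families most like the most abundant member of each were named by their correlation with it. Over the 24 libraries and 378 candidates with a mean of at least 100 CPM, those most like ssc-miR-10b by Pearson's r of log2 CPM were ssc-miR-192 (0.62), ssc-miR-181d-3p (0.62) and ssc-miR-214 (0.60). For ssc-miR-99b they were ssc-miR-4335 (0.91), ssc-miR-214 (0.90) and ssc-miR-370 (0.88), and for ssc-miR-125a ssc-miR-1285 (0.97), ssc-let-7d-3p (0.97) and ssc-miR-484 (0.96). The points share animals and library depth, so the values describe likeness only. Among the members themselves, ssc-miR-10b had an r of 0.67 with ssc-miR-10a-5p and 0.72 with ssc-miR-99b, both above its r with any of those candidates.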

How the data were processed

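Small RNA libraries (TruSeq) were made from 5 µL of plasma. The authors trimmed reads with Cutadapt, aligned them with Bowtie2 2.2.3.0 (submitters' processing notes) to a pig genome they call ssc5 and then to miRBase, quantified ssc-miRNAs with miRDeep2, and deposited raw counts per ssc-miRNA and library without normalization. Reads that match near-identical mature sequences can be assigned to either or counted for both. The members, lists and tests were chosen with earlier results of these data known.

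Counts were tested with edgeR's quasi-likelihood test (edgeR 4.0.16, R 4.3.3) with TMM scaling. Rows needed a CPM over 0.5 in 3 or more libraries, and all 411 met this. The 5 phase groups shared 1 fit that ignored the animal, single time points in a fit of 9 groups and C1 against C7 in a fit of 10. P values were adjusted by Benjamini-Hochberg over 411 ssc-miRNAs, and called means an unadjusted p under 0.05, as in the study, unless adjustment is named. Each SE is the absolute log2 fold change over the square root of the test's F. edgeR raises p for rows with less spread than counting gives, so p and SE need not match. Levels are TMM-scaled CPM, with a prior count of 2 on the log2 scale. Ratios used counts plus 0.5 and two-sided exact permutation tests within minipigs. Every member, every let-7a, let-7c, let-7e, miR-196 and miR-615 row, and the 3 rows most like the leading member of each family were named. The fits were checked on simulated counts with no difference between animals, and only the direction of large changes had to be right. The permutation test was checked on simulated libraries spread evenly over 3 minipigs, unlike the post-TBI libraries here. Figures were drawn with matplotlib 3.10.9 in Python 3.11.15.

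The design pairs libraries by animal. Deviations from the phase means were correlated between libraries of different phases. The average was 0.169 over 78 pairs from the same minipig and -0.102 over 130 pairs from different minipigs. At Late and LR the 2 libraries mirror each other around their mean by construction, so these averages are not independent. P values without the block treat the libraries of an animal as independent. Totals of 24341 to 550316 counts set the precision, and PCR copies were not separated. Alternatives were the minipig as a block, other scalings, DESeq2 1.42.0, no filter, fits of only the groups compared and leaving out each minipig. A fit without the smallest library (minipig 1 at C7) was added after the data were seen. Mature sequences were not used here, and no coordinates are given because the builds differ.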

Additional observations from a re-analysis of the deposited data

Results flagged for a closer look

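Of 39 groups of 4 to 10 libraries checked for a value that stands apart by Dixon's criterion, 2 held one, and chance alone gives about 1 in 20. The log2 ratio of ssc-miR-10b over ssc-miR-10a-5p at Early was lowest in minipig 2 at 3d, at -0.11, with the next library at 0.92. Minipig 1 stood at 0.92 both at 3d and at 0d. The log2 ratio of ssc-miR-125b over ssc-miR-125a before TBI was lowest in minipig 1 at C7, at -0.76, with the next library at -0.19. It came from 11 and 19 counts in the smallest library used.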

How the results depend on the processing

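Mid, Late and LR values rest on 2 animals, and their pre-TBI baseline on 3. Depth limits the Late libraries (29159 and 63441 counts) and the Mid ones (35762 to 103083) more than those at LR (401408 and 550316). All 411 ssc-miRNAs passed the filter, so leaving it out could change nothing. Adding 2 to each count or dropping the replicate block changed no call on a ratio. At Late and LR the exact permutation test within minipigs allowed no p under 0.111, so no call was possible there with the block. Scaling by library size alone moved the Late median of all ssc-miRNAs from 0.076 to -0.21, and the members' median from -1.11 to -1.27. Where no cause is given below, the cause was not tested.

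With the minipig as replicate block, members called numbered 0 at Early and, after adjustment, 1 at Late (ssc-miR-10a-5p), partners called at Mid 0 and all ssc-miRNAs called at LR 49. Reversed values with the block were ssc-miR-100 at Mid (-0.045) and ssc-miR-10a-3p at Late (0.13) and LR (1.30). The block changed no other count of member calls by over 1.5 times, though ssc-miR-10a-5p at 7d was no longer called (0.62).

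With library size only, 4 members were called at Late (2 with TMM) and 10 member and time point pairs (6 with TMM), partners called were 0 at Early, Mid and LR, and ssc-miR-100 at Late was -0.15. All ssc-miRNAs called numbered 13 at Early adjusted, 11 at Mid unadjusted and 10 at Late adjusted (0, 22 and 18 with TMM). With RLE, 12 were called at Early adjusted and 0 partners at Early and Mid. With the DESeq2 Wald test, 2 members were called at Early and 4 at Late, 1 of them after adjustment, and all ssc-miRNAs called were 33 at Early adjusted and 58 at LR. In fits of only the 2 groups compared, 1 member was called at Late, no member and time point pair (0) after adjustment, and partners called were 3 at Early, 3 at Mid and 1 at Late, with 0 adjusted. All ssc-miRNAs called were then 38 at Early adjusted and 39 at Late, with 0 adjusted, and ssc-miR-100 at Mid was at -8.7e-05. These fits hold fewer libraries.

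Leaving out 1 minipig at a time, members called ranged from 0 to 1 at Early, 0 to 1 at Mid, 1 to 6 at Late (0 to 3 adjusted) and 0 to 1 at LR, and member and time point pairs from 3 to 13 (0 to 2 adjusted). Partners called ranged from 0 to 1 at Early, 0 to 2 at Mid, 0 to 1 at LR and, adjusted, 1 to 3 at Late. All ssc-miRNAs called ranged from 35 to 78 at Early (0 to 8 adjusted), 60 to 132 at Late (9 to 77 adjusted) and 19 to 65 at LR (0 to 6 adjusted). The highest Late counts came without minipig 2 and the lowest count of members without minipig 1. Log2 fold changes that reversed ranged at Early from -0.054 to 0.45 for ssc-miR-10b, -0.29 to 0.017 for ssc-miR-100 and -0.43 to 0.16 for ssc-miR-99a. At Mid they ranged from -0.14 to 0.10 for ssc-miR-100 and -3.34 to 1.26 for ssc-miR-10a-3p. At Late they ranged from -0.41 to 0.37 for ssc-miR-100, -2.54 to 0.29 for ssc-miR-99b, -0.43 to 1.04 for ssc-miR-99a, -2.92 to 2.53 for ssc-let-7a and -0.75 to 3.13 for ssc-let-7e. At LR they ranged from -0.25 to 0.15 for ssc-miR-125b, -0.20 to 0.28 for ssc-miR-125a, -0.47 to 0.067 for ssc-miR-100 and -0.68 to 0.095 for ssc-miR-10a-5p.

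Differences in the log2 ratio from pre-TBI, with 1 minipig left out, ranged from 0.51 to 1.09 for ssc-miR-10b over ssc-miR-10a-5p at Mid, and for ssc-miR-99b over ssc-miR-125a from -0.38 to 0.0054 at Early, -0.016 to 0.65 at Late and -0.25 to 1.13 at LR. For ssc-miR-125b over ssc-miR-125a they ranged from 0.059 to 0.29 at Early, -0.13 to 0.15 at Mid, -0.090 to 0.14 at Late and -0.032 to 0.15 at LR. They ranged from -0.61 to 0.11 for ssc-miR-125b over ssc-miR-100 at Mid and from -0.20 to 0.070 for ssc-miR-99a over ssc-miR-100 at Early.

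Without the C7 library of minipig 1, a setting that was chosen once the data had been seen, 4 members were called at Late. Partners called were 0 at Mid and LR and, adjusted, 2 at Late. All ssc-miRNAs called were 27 at Early adjusted, 38 at Mid and 36 at Late adjusted. ssc-miR-100 at Mid was -0.028, ssc-miR-125b at LR -0.24 and ssc-miR-125a at LR -0.13. The difference in ratio of ssc-miR-10b over ssc-miR-10a-5p at Mid was 0.83 (p = 0.0556, exact permutation test), that of ssc-miR-99b over ssc-miR-125a at Early 0.050, and those of ssc-miR-125b over ssc-miR-125a -0.092 at Mid, -0.10 at Late and -0.089 at LR.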
